A study of Mus musculus with 5 samples.

Results

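The cells described here are Th1-like CD4 T cells from injured mouse kidneys in which no transcript of a set of resident-marker genes was counted. They were chosen by their own counts of unique molecular identifiers (UMIs), so the choice is itself a readout. A cell had to have 500 or more genes, under 10% mitochondrial UMIs and 1 or more UMIs of each of Cd4, Cxcr3 and Nkg7. It had to have 0 UMIs of Foxp3, Cd8a, Ncr1, Itga1, Zfp683, Chst2, Gpr55, Eomes, Gzmk, Il23r and Mki67. Of 40778 barcodes, 38417 met the filters on genes and mitochondrial UMIs, and 2013 of these (5.24%) met the whole rule and are called members here. The 14 genes of the rule are not reported as results.

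The study compared CD4 T cells of Il1rl1fl/fl Foxp3YFP-Cre mice (knockout, 3 libraries) and Il1rl1fl/fl mice (control, 2 libraries, titled wild type). All mice were 10 weeks old and had undergone unilateral ischemia-reperfusion injury of the kidney. Il1rl1 encodes ST2, the receptor of the alarmin IL-33, and the design text asks about the role of ST2-bearing regulatory T cells in the kidney. Kidneys were digested with collagenase, CD4 T cells were sorted by flow cytometry, and libraries were made with the 10x Genomics 3′ single-cell chemistry. Only the knockout mice carried the Foxp3YFP-Cre allele, so an effect of the allele and an effect of losing Il1rl1 cannot be told apart. Its Cre recombinase is driven by Foxp3, and members had 0 Foxp3 UMIs by the rule. Whether the libraries stem from different mice is not given, so p-values measure the spread between these libraries, which may be technical. The time after injury and the sex of the mice are not given in the sources used here.

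Th1 cells are CD4 helper cells that produce interferon gamma under the transcription factor T-bet, encoded by Tbx21. T-bet is known to drive Cxcr3, a chemokine receptor that brings T cells into inflamed tissue, and the receptor subunit Il12rb2, through which interleukin 12 sustains the Th1 state. Some T cells settle in a tissue and stop recirculating, and integrin alpha 1 (Itga1) and the factor Hobit (Zfp683) are used to mark them. Cells that leave tissue through lymph rely on the sphingosine receptor S1pr1 and its inducer Klf2. Nkg7 is a membrane protein of cytotoxic granules, and the chemokine Ccl5 is made by antigen-experienced T cells.

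The sequences shown are the promoters of 3 of the 5 genes given as markers of these cells, because T-bet is itself the product of a marker gene and binds a T-box element. Of the 5 markers (Cxcr3, Nkg7, Ccl5, Il12rb2 and Tbx21), 4 had an entry in the RefSeq promoter table for GRCm38.p6, which spans 250 bases before and 50 bases after the start. The core TCACAC, or GTGTGA on the other strand, is in capitals. It was found once in 3 of these 4 promoters and not in the window of Tbx21. Among all 32851 promoters of the table, 4760 (14.5%) hold it. A match is a description of letters, not a site.
Cxcr3, chrX:101734098-101734397, minus strand: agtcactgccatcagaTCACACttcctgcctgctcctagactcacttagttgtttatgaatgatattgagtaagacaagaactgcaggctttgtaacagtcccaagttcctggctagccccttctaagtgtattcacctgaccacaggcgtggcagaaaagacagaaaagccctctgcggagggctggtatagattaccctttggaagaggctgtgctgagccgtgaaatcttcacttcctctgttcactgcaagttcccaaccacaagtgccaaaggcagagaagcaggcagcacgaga
Nkg7, chr7:43436888-43437187, plus strand: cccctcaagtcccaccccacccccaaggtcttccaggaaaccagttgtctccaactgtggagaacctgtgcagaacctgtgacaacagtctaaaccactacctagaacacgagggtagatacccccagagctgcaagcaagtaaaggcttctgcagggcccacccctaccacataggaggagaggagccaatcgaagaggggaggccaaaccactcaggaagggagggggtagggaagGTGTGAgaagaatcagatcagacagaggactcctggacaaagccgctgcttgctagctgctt
Il12rb2, chr6:67376139-67376438, minus strand: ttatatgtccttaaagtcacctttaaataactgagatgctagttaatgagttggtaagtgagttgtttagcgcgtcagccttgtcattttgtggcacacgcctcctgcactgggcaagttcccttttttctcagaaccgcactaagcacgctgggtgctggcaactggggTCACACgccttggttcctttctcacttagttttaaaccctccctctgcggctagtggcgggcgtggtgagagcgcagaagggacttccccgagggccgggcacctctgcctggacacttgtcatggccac

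The libraries held 31104939 to 60421178 UMIs in the knockout group, and 152275841 and 46383793 UMIs in control 1 and control 2. Members numbered 183, 736 and 281 in knockout 1 to 3 and 389 and 424 in control 1 and 2, with 1397770 to 3924441 UMIs in knockout libraries and 5502025 and 2128130 in control libraries. Their median depth was 7270, 4809.5 and 4287 UMIs per cell in the knockout libraries and 12936 and 4483.5 in the control libraries. Control 1 was therefore the deepest library. Across pairs of libraries 180 cell barcodes were shared, 157 of them between retained cells and 2 between members, of knockout 2 and control 1. Values by library are given in the order knockout 1, 2 and 3, then control 1 and 2. Levels are UMIs per 1000000 (CPM) of the summed members of a library, scaled over all libraries and populations.

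The rule removed cells step by step. Cd4, Cxcr3 and Nkg7 together left 13035 cells, Foxp3, Cd8a and Ncr1 left 11573, and the requirement of 0 Itga1 and 0 Zfp683 UMIs removed 3801 and then 1940 more. Chst2 removed 1452, Mki67, a gene of dividing cells, removed 847, and the other 4 genes removed the rest. Of the members, 44.3% had exactly 1 Cxcr3 UMI, 27.9% exactly 1 Nkg7 UMI and 20.6% exactly 1 Cd4 UMI. Just outside the rule were 1836 cells with 1 UMI of 1 excluded gene.

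A count of 0 depends on depth. Resident-marker cells met the same rule but had 1 or more UMIs of Itga1 or Zfp683, with Chst2 and Gpr55 left free, and numbered 2254. Their median depth was 8689, 5509 and 4971.5 UMIs in knockout libraries and 16296 and 5915 in control libraries, above that of members in all 5 libraries. When each cell was thinned to 2000 UMIs, 1227 cells met the rule for members. Of these, 550 (44.8%) were members at full depth, and 677 had UMIs of an excluded gene that thinning removed. In control 1 the share was 18.4%. Each comparison with another population was therefore repeated on this equal-depth gate.

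The label Th1-like was checked against the marker genes that the rule did not use. After thinning to 2000 UMIs, 1 or more UMIs of Ccl5, Il12rb2 or Tbx21 were found in 56.9%, 60.4% and 59.3% of members in knockout libraries and in 46.0% and 61.2% in control libraries. The range over libraries was 69.4% to 80.3% in resident-marker cells and 8.56% to 21.4% in other CD4 cells, which met the rule but had 0 UMIs of both Cxcr3 and Nkg7 (5114 cells). Cells that met the rule except for 0 Cxcr3 UMIs numbered 1216, and those except for 0 Nkg7 UMIs numbered 1541. In that order, a Ccl5 UMI was found in 47.0% and 17.5% (medians over libraries, thinned), against 48.6% in members. For Tbx21 it was 18.8% and 12.9% against 20.4%, and for Il12rb2 7.04% and 4.71% against 6.67%. By these medians the markers hardly set members apart from cells with Nkg7 and no Cxcr3 UMI. Ccl5 was at 681, 635, 949, 544 and 1015 CPM in members and at 26.9, 91.7, 79.5, 31.1 and 65.2 CPM in other CD4 cells. Tbx21 was at 129, 133, 110, 93.7 and 96.6 CPM in members and at 35.9, 72.8, 28.4, 23.0 and 18.8 CPM in other CD4 cells. Both genes were higher in members in all 5 libraries, with no overlap between the populations. Il12rb2 was at 57.0, 128, 36.6, 12.9 and 38.7 CPM in members and at 8.16, 70.5, 26.0, 2.82 and 7.04 CPM in other CD4 cells, and its range overlapped between them. Cells gated as B cells, which should lack these genes, had at the same 2000 UMIs a Ccl5 UMI in 4 of 69 cells (5.80%, median over libraries 0%) and a Tbx21 or Il12rb2 UMI in 0 of 69, which allows a share of up to 4.35% by a floor of 3 counts and 5.21% by the exact 95% interval. Because these markers came with the rule, no test is given for them against other CD4 cells.

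The first question of the design was how common the members were in each genotype. Among retained Cd4-positive, Foxp3-negative cells thinned to 2000 UMIs, members made up 6.97%, 8.92% and 7.70% in knockout libraries and 5.55% and 7.37% in control libraries. The mean was 7.86% ± 0.986 (SD, n = 3) in knockout and 6.46% ± 1.29 (SD, n = 2) in control libraries. The ranges overlapped, since control 2 lay above knockout 1. The difference of 1.40 percentage points did not pass (two-sided exact permutation test, p = 0.4, where the smallest p that 3 against 2 libraries allow is 0.2). Without thinning the shares were 5.82%, 10.3% and 8.01% in knockout libraries and 5.24% and 7.33% in control libraries (exact permutation p = 0.4). When cells were thinned to 1000 UMIs the difference had the other sign, at -0.209 percentage points.

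**Figure D1:**
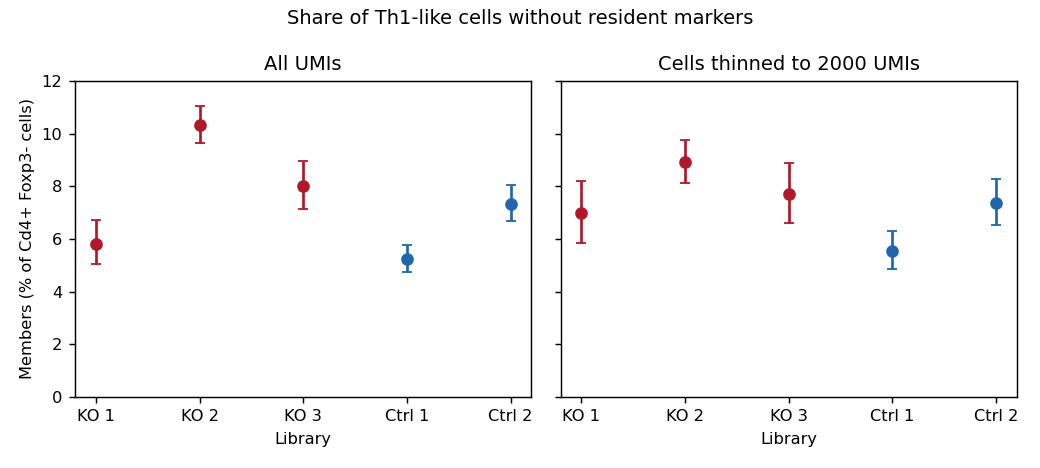
Members as a percentage of Cd4-positive, Foxp3-negative cells (vertical axis) in each knockout (KO) and control (Ctrl) library, from all UMIs and after thinning each cell to 2000 UMIs. Bars are exact (Clopper-Pearson) 95% binomial intervals, which cover counting error only, and the thinned share of control 2 (7.37%) lies between those of knockout 1 (6.97%) and knockout 3 (7.70%).

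Set against other CD4 cells of the same libraries, members were higher in most genes of a Th1 and a cytotoxic granule list and lower in 14 of 15 naive and memory genes. Ly6c2, a surface protein of activated T cells, averaged 168 ± 24.1 CPM in members and 15.8 ± 5.54 CPM in other CD4 cells (SD, n = 5). Ccr7, the lymph node chemokine receptor, averaged 31.7 ± 13.5 CPM in members and 228 ± 65.7 CPM in other CD4 cells. The log2 fold change of members over other CD4 cells was 3.34 ± 0.14 (SE) for Ly6c2 and -2.84 ± 0.11 for Ccr7 (adjusted p = 1.6e-09 and 6.03e-10). These and all later adjusted p-values come from edgeR's quasi-likelihood test on UMIs summed per library with Benjamini-Hochberg adjustment, here with the library as a term. Of 10091 genes tested, 4975 (49.3%) passed, 2598 higher (25.7%) and 2377 lower (23.6%), and DESeq2 called 3542 (35.1%), so single calls in this comparison are common. Members had to have UMIs of Cxcr3 and Nkg7, and other CD4 cells had to have none of either. Differences between them, also in the Th1 and cytotoxic granule lists, thus describe which genes went with those markers.

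Th1 effector genes were mostly higher in members. Of 18 tested genes of a Th1 list, which leaves out the label markers Ccl5, Tbx21 and Il12rb2, 13 were higher and 1 was lower, with a median log2 fold change of 0.98 against 0.02 over all genes. Ifng, which encodes interferon gamma, was at 24.6, 138, 50.6, 28.1 and 54.9 CPM in members and at 3.67, 17.1, 7.44, 4.55 and 22.8 CPM in other CD4 cells. It was higher in members within every library (log2 fold change 2.36 ± 0.21, adjusted p = 1.02e-06), although knockout 2 stood far above the other members. The factors Id2 (2.03 ± 0.08) and Runx3 (0.90 ± 0.07), both known to support effector T cells, and the cytokine gene Tnf (0.96 ± 0.14) rose as well. Stat4, which relays the interleukin 12 signal, did not pass (0.11 ± 0.06, adjusted p = 0.113), passed without knockout 2 (0.15, adjusted p = 0.0346) and was at -0.19 on the equal-depth gate. Csf1, a macrophage growth factor, passed narrowly (0.56 ± 0.22, adjusted p = 0.0494), and not with DESeq2 (0.40, adjusted p = 0.354), with RLE factors (0.55, adjusted p = 0.051) or without knockout 1 (0.53, adjusted p = 0.0893). The Th1 gene that fell was Txk, a kinase of the Tec family (-1.77 ± 0.14), named after its values were seen.

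Homing receptor genes moved in both directions, 5 of 13 tested chemokine and egress receptor genes rising and 6 falling. Cxcr6, a receptor for a chemokine of tissue macrophages and epithelium, was at 296, 488, 317, 135 and 238 CPM in members and at 44.5, 112, 72.1, 14.1 and 37.2 CPM in other CD4 cells. The populations did not overlap (2.58 ± 0.13, adjusted p = 6.14e-09). Ccr2, a receptor that brings cells to inflamed tissue, rose by less (0.98 ± 0.08), while Ccr6, the receptor of Th17 cells, fell (-1.55 ± 0.37, adjusted p = 0.0034). S100a4 (1.99 ± 0.08) and Lgals1 (1.71 ± 0.06), both known from activated T cells, and the GTPase gene Gimap7 (1.84 ± 0.06) were among those with the smallest p. The inhibitory receptor gene Pdcd1 (1.32 ± 0.11) and the phosphatase gene Dusp2 (1.42 ± 0.08) rose too.

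Of 14 tested genes of a cytotoxic granule list, 11 rose and 1 fell. Gzmb, granzyme B, was at 26.5, 20.4, 41.5, 1.71 and 36.3 CPM in members and at 0.408, 3.48, 3.72, 0.364 and 1.34 CPM in other CD4 cells (3.68 ± 0.34, adjusted p = 1.2e-06). Control 1 was low in both populations. Ctsw, cathepsin W of cytotoxic lymphocytes (2.01 ± 0.08), and the activating receptor gene Klrk1 (2.13 ± 0.22) rose. The exception was Prf1, the pore-forming protein perforin, at 3.88, 9.95, 7.73, 3.61 and 3.92 CPM in members and at 18.8, 12.5, 17.2, 17.9 and 24.8 CPM in other CD4 cells. It was lower in members in every library (-1.62 ± 0.28, adjusted p = 0.000293) and was named after its values were seen.

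Naive and memory genes were lower in members almost throughout. Of 15 tested, 14 fell and none rose (median -1.58). The Wnt-pathway factors Lef1 (-2.28 ± 0.12) and Tcf7 (-1.14 ± 0.05), and the quiescence factors Bach2 (-1.97 ± 0.08) and Foxp1 (-1.58 ± 0.05), all fell. Of 11 egress and circulation genes 7 fell and 3 rose, with Klf2 at -1.33 ± 0.08 and S1pr1 at -1.11 ± 0.06. St8sia6, a sialyltransferase (-3.49 ± 0.13), Actn1, an actin crosslinker (-3.09 ± 0.13), and Ripor2 (-1.27 ± 0.04) had the smallest p among the rest. Gata3, the Th2 factor, did not pass (-0.09 ± 0.09, adjusted p = 0.446), and Il1rl1 was lower in members (-0.98 ± 0.28, adjusted p = 0.0095).

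Interferon-induced genes were higher as a group. Of 13 tested genes of type II interferon 10 rose and none fell (median 0.51), with Psmb8, an immunoproteasome subunit, at 1.15 ± 0.05. Of 10 type I genes, 7 rose and none fell, with Isg15 at 1.19 ± 0.13. Markers of macrophages moved with these results. Of 8 on the list 6 were higher in members and none was lower, and the summed level was 375 to 712 CPM in members and 240 to 593 CPM in other CD4 cells. C1qb, a complement gene of macrophages, rose (1.00 ± 0.08), but was at -0.03 on the equal-depth gate. Their part in the results was not tested. On the equal-depth gate 2632 genes passed, and apart from Stat4 and C1qb every gene named in this comparison that was tested there kept its direction.

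**Figure D2:**
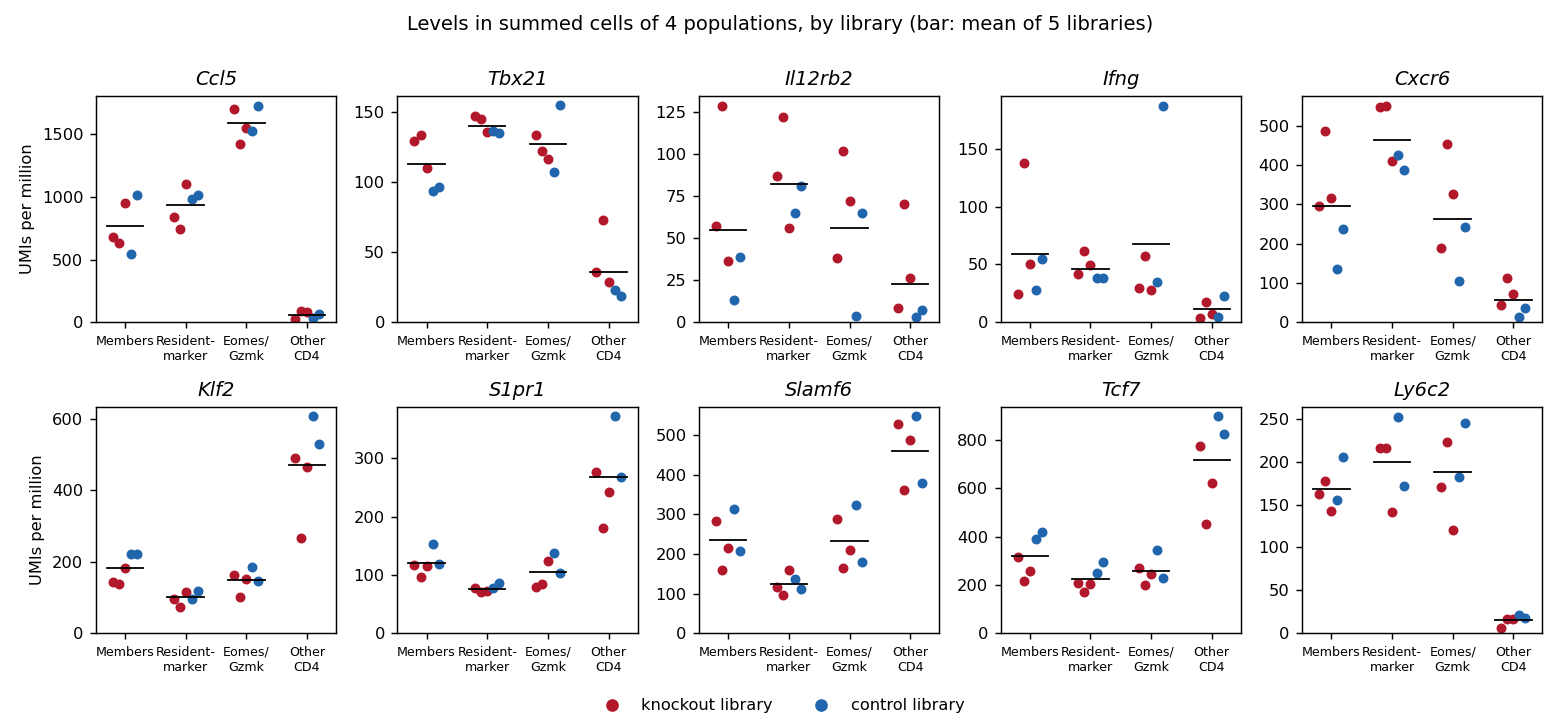
CPM (linear axes from 0) of 10 genes in the summed members, resident-marker cells, Eomes/Gzmk cells and other CD4 cells, 1 point per library, red for knockout and blue for control, with a bar at the mean of the 5 libraries. Ccl5 averaged 765 CPM in members and 1588 CPM in Eomes/Gzmk cells, and Klf2 averaged 182 CPM in members and 100 CPM in resident-marker cells.

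Against resident-marker cells, which share the Cxcr3 and Nkg7 requirement, 6 of 11 egress and circulation genes and 7 of 15 naive and memory genes were higher in members and none of either list was lower. Tissue-linked and killer receptor genes were mixed or depended on single libraries. Klf2 was at 144, 138, 183, 221 and 222 CPM in members and at 96.4, 74.8, 115, 97.3 and 118 CPM in resident-marker cells. The populations did not overlap (log2 fold change of members over resident-marker cells 0.90 ± 0.08, adjusted p = 6.99e-06). Fgl2, a secreted immunoregulatory protein, was at 42.1, 51.8, 61.2, 16.5 and 41.7 CPM in members and at 137, 127, 126, 151 and 149 CPM in resident-marker cells, the lowest resident-marker library lying above the highest members (-1.86 ± 0.20, adjusted p = 5.83e-05). Of 10007 genes tested, 555 (5.55%) passed, 312 higher (3.12%) and 243 lower (2.43%) in members, and DESeq2 called 306 (3.06%). Since members are cells with no UMI of the resident markers, such differences describe which genes went with those markers.

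Of 11 tested egress and circulation genes, 6 were higher in members and none was lower, with a median of 0.49 against 0.01 over all genes. S1pr1 was at 118, 97.2, 115, 153 and 119 CPM in members and at 77.8, 70.0, 72.0, 77.9 and 85.3 CPM in resident-marker cells, with no overlap (0.69 ± 0.08, adjusted p = 0.000106). On the equal-depth gate S1pr1 did not pass (0.23, adjusted p = 0.862), whereas Klf2 did (1.38, adjusted p = 1.9e-06). Klf3, a relative of Klf2, rose (0.49 ± 0.07). Gpr183, an oxysterol receptor that guides lymphocytes within lymphoid tissue, rose (0.77 ± 0.09) and passed on both gates. Ccr7 was higher too (0.78 ± 0.15), but did not pass without control 1 (0.56, adjusted p = 0.0767).

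Of 15 naive and memory genes, 7 were higher in members and none was lower (median 0.39). Slamf6, a receptor of the SLAM family borne by less differentiated T cells, was at 283, 161, 215, 314 and 209 CPM in members and at 118, 95.9, 161, 138 and 112 CPM in resident-marker cells. It was higher within each library (0.95 ± 0.09, adjusted p = 2.45e-05) and also on the equal-depth gate (1.36). Il7r, the interleukin 7 receptor of long-lived T cells, was at 819, 452, 577, 899 and 448 CPM in members and at 504, 344, 311, 369 and 373 CPM in resident-marker cells (0.73 ± 0.11, adjusted p = 0.000762). It too passed on the equal-depth gate (0.60). Tcf7 rose by 0.51 ± 0.06 (adjusted p = 9.81e-05), but not on that gate (0.40, adjusted p = 0.149).

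Other genes with the smallest p were of mixed roles. Adk, adenosine kinase, was at 95.1, 56.9, 115, 142 and 137 CPM in members and at 37.0, 25.9, 57.1, 66.9 and 77.6 CPM in resident-marker cells (1.08 ± 0.08, adjusted p = 6.25e-07). Aff3 (0.69 ± 0.08), Sidt1 (0.71 ± 0.07), Rasgrp2, an activator of Rap1 (0.87 ± 0.09), and the membrane protein gene Gpm6b (1.58 ± 0.15) rose with it. Of a T follicular helper list of 4 tested genes, 3 rose, with Tbc1d4, a regulator of glucose uptake, at 0.83 ± 0.09 and Pdcd1 at 0.61 ± 0.09. Of 7 genes of a regulatory T cell list without Foxp3, 5 rose, among them the costimulatory receptor Tnfrsf4 (0.79 ± 0.08), Ctla4 (0.89 ± 0.13), Nrp1 (0.52 ± 0.07) and Ikzf2 (0.62 ± 0.10). Ikzf2, the factor Helios, was at 193 to 209 CPM in members and at 1119 to 2028 CPM in cells with a Foxp3 UMI.

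Tissue-linked genes were split. Of 16 tested residency-linked genes, 4 were lower in members and 1 was higher (median -0.07). Cxcr6 was at 296, 488, 317, 135 and 238 CPM in members and at 548, 550, 411, 425 and 387 CPM in resident-marker cells. Knockout 2 of the members overlapped with the resident-marker range (-0.76 ± 0.14, adjusted p = 0.00437). The lymphotactin gene Xcl1 (-0.93 ± 0.18), the extracellular ATP receptor gene P2rx7 (-0.82 ± 0.14) and Rgs1, which dampens chemokine receptor signals (-0.32 ± 0.08, adjusted p = 0.0291), were lower as well. Rgs1 did not pass without control 1, control 2, knockout 1 or knockout 3 (-0.35 to -0.19, adjusted p 0.0596 to 0.233) or on the equal-depth gate (-0.08). The gene that rose was Crtam, an adhesion receptor of cytotoxic T cells (1.11 ± 0.29, adjusted p = 0.0329), from levels of 3.24 to 17.6 CPM in members and 1.76 to 6.49 CPM in resident-marker cells. It did not pass without control 2, or without any knockout library (0.90 to 1.15, adjusted p 0.0565 to 0.141).

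Of 21 tested Th1 genes, 7 were lower in members, 1 was higher and 13 did not pass, with a median of 0.00. Tbx21 was at 129, 133, 110, 93.7 and 96.6 CPM in members and at 147, 145, 136, 136 and 135 CPM in resident-marker cells (-0.33 ± 0.07, adjusted p = 0.0107). Ccl5 (-0.32 ± 0.08, adjusted p = 0.0341) and Il12rb2 (-0.81 ± 0.22, adjusted p = 0.0428) were also lower. On the equal-depth gate none of these 3 passed (Tbx21 -0.12, Ccl5 -0.22, Il12rb2 -0.45). Without control 1 the values were -0.25 for Tbx21 (adjusted p = 0.0809), -0.18 for Ccl5 (adjusted p = 0.0767) and -0.40 for Il12rb2 (adjusted p = 0.128). Calls were also lost without control 2 for Tbx21 (-0.30) and Il12rb2 (-0.77), without knockout 1 for Ccl5 (-0.34) and Il12rb2 (-0.87), and without knockout 3 for Ccl5 (-0.34) and Il12rb2 (-0.83). The gene that rose was Il18r1, a receptor subunit for interleukin 18 (0.48 ± 0.07), which was at 0.16 on the equal-depth gate. Ifng (0.23 ± 0.19), Tnf (0.08 ± 0.13), Stat4 (0.11 ± 0.05), Csf1 (-0.03 ± 0.20) and Gzmb (-0.04 ± 0.33) did not pass (adjusted p 0.291 to 0.986). Ifng was at 24.6 to 138 CPM in members and at 38.1 to 61.5 CPM in resident-marker cells.

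Of 7 tested killer lectin-like receptor genes, 4 were lower and none was higher (median -0.56). Klrc1, an inhibitory receptor subunit, was at 0.57 to 14.04 CPM in members and at 7.13 to 17.8 CPM in resident-marker cells (-1.79 ± 0.40, adjusted p = 0.0142). Klrc2 (-1.75 ± 0.44) and Klrb1c (-1.11 ± 0.31), also at low levels, were lower. Klrk1 was lower by the test (-0.56 ± 0.14), at 25.3 to 52.4 CPM in members and 33.7 to 83.1 CPM in resident-marker cells, but was higher in members in 2 of 5 libraries. None of the 4 passed without control 1 (-1.12, -0.84, -0.71 and -0.36, adjusted p 0.0511 to 0.479). Klrc1 (-1.68), Klrc2 (-1.74) and Klrb1c (-1.20) did not pass without control 2, nor Klrc2 (-1.84), Klrb1c (-1.13) and Klrk1 (-0.54) without knockout 1, Klrb1c (-1.03) and Klrk1 (-0.52) without knockout 2, or Klrc2 (-1.77) without knockout 3. The chemokine gene Ccl4 rose (1.76 ± 0.29, adjusted p = 0.00194). The ubiquitin ligase gene Nedd4 (-1.21 ± 0.13), Cd38 (-1.09 ± 0.15), Cd226, an activating receptor (-0.52 ± 0.07), Slamf7 (-0.76 ± 0.14) and Ctsw (-0.64 ± 0.10) were lower. Il1rl1 was slightly higher in members (0.55 ± 0.14, adjusted p = 0.0328), but did not pass when any 1 of the 5 libraries was left out, at 0.48 to 0.60 (adjusted p 0.0502 to 0.169). Lyz2, a macrophage gene, was lower (-0.81 ± 0.23, adjusted p = 0.0473), and was at 0.03 on the equal-depth gate. It did not pass without control 1 (-0.50), control 2 (-0.59) or knockout 3 (-0.87). The summed macrophage list was 375 to 712 CPM in members and 413 to 1177 CPM in resident-marker cells, and its part in these results was not tested.

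**Figure D3:**
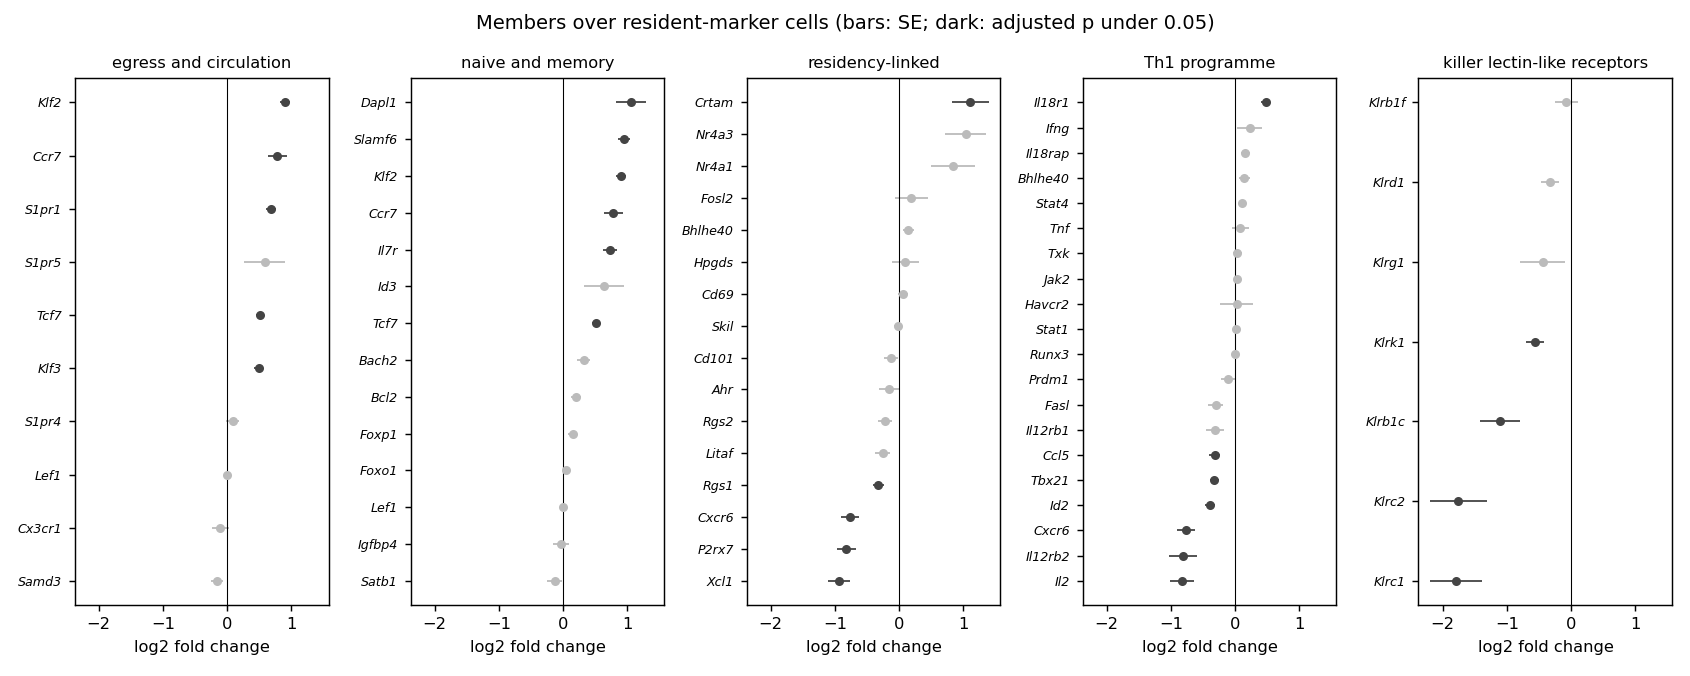
Log2 fold change (horizontal axes) of members over resident-marker cells for tested genes of 5 lists, with bars of 1 SE, dark where the adjusted p is under 0.05 and grey otherwise. Klf2 (0.90), Slamf6 (0.95) and Il7r (0.73) lie to the right, and Xcl1 (-0.93), Cxcr6 (-0.76) and Klrc1 (-1.79) to the left.

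On the equal-depth gate 64 genes passed against resident-marker cells, 39 higher and 25 lower. Klf2, Slamf6, Il7r, Aff3, Sidt1, Gpr183, Tnfrsf4, Ikzf2, Fgl2, Nedd4, Cxcr6, Xcl1 and P2rx7 were among them, with Fgl2 at -1.41, Cxcr6 at -0.51 and Xcl1 at -1.01. Calls lost there, beside those already given, were Tbc1d4 (0.44), Pdcd1 (0.51), Nrp1 (0.34), Klf3 (0.62), Cd226 (-0.23), Cd38 (-0.74) and Slamf7 (-0.40), with adjusted p of 0.0585 to 0.503. Adk, Rasgrp2, Gpm6b, Ctla4, Ccr7, Ccl4, Crtam, Il1rl1 and the 4 killer receptor genes were not tested there. With DESeq2 at full depth Cxcr6 (-0.75, adjusted p = 0.0674), Ccl5 (-0.31), Il12rb2 (-0.88), Rgs1 (-0.31), Klrk1 (-0.49), Il1rl1 (0.59) and Lyz2 (-0.75) did not pass, and it gave no adjusted p for Crtam, Klrc1, Klrc2 and Klrb1c. At full depth 269 genes passed without control 1 and 315 without control 2.

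Eomes/Gzmk cells met the rule for members except that they had 1 or more UMIs of Eomes or Gzmk. They numbered 474, or 55 to 171 per library. Of 15 tested cytotoxic granule genes 6 were lower in members, 9 did not pass and none was higher, and the chemokine gene Ccl5 was lower as well. Ccl5 was at 681, 635, 949, 544 and 1015 CPM in members and at 1706, 1427, 1550, 1530 and 1725 CPM in Eomes/Gzmk cells, with no overlap (log2 fold change of members over Eomes/Gzmk cells -1.16 ± 0.07, adjusted p = 1.4e-12). Prf1 was at 3.88, 9.95, 7.73, 3.61 and 3.92 CPM in members and at 38.0, 21.4, 13.7, 19.7 and 22.6 CPM in Eomes/Gzmk cells, again with no overlap (-2.00 ± 0.31, adjusted p = 0.000204). Of 8888 genes tested, 126 (1.42%) passed, 60 higher (0.675%) and 66 lower (0.743%), and DESeq2 called 53 (0.596%). Since members are cells with no UMI of Eomes or Gzmk, these differences describe which genes went with Eomes or Gzmk.

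The median over the 15 cytotoxic granule genes was -0.37. Gzma, granzyme A, was at 0.703 to 3.92 CPM in members and at 7.45 to 45.2 CPM in Eomes/Gzmk cells (-2.70 ± 0.44, adjusted p = 0.000402). Gzmb was lower (-1.37 ± 0.24, adjusted p = 0.00131), but not without control 2 (-0.90, adjusted p = 0.126), where Eomes/Gzmk cells had 191 CPM. Fasl, the death ligand (-0.64 ± 0.12), and Slamf7 (-0.68 ± 0.12) were lower. Neither passed without control 1, at -0.54 for Fasl (adjusted p = 0.0537) and -0.55 for Slamf7 (adjusted p = 0.0717). The low counts of Prf1, Gzma and Gzmb left them untested on the equal-depth gate. Rgs1 (-0.83 ± 0.09), Samd3 (-1.38 ± 0.12), Rasgef1b (-2.95 ± 0.24), Ikzf3, the factor Aiolos (-0.51 ± 0.07), the adaptor gene Sh2d1a (-0.66 ± 0.10), Tox, a factor of chronically stimulated T cells (-0.38 ± 0.07), and Ifngas1, a noncoding RNA next to Ifng (-1.66 ± 0.19), were lower too. The interferon-induced gene Mx1 was lower (-0.72 ± 0.14), but not without control 1 (-0.60, adjusted p = 0.129).

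Of 14 naive and memory genes, 3 were higher in members and none was lower (median 0.25). The chromatin organiser gene Satb1 was at 119, 185, 153, 80.1 and 177 CPM in members and at 57.9, 135, 34.4, 35.1 and 107 CPM in Eomes/Gzmk cells (0.87 ± 0.13, adjusted p = 0.000127). It was higher in members within each library, although the ranges overlapped. Il7r (0.34 ± 0.06) and Bach2 (0.42 ± 0.10) were higher, Bach2 not without knockout 1 (0.28, adjusted p = 0.304) or knockout 3 (0.34, adjusted p = 0.158). The polarity gene Pard3 (2.96 ± 0.35), the growth factor receptor gene Igf1r (2.01 ± 0.29), the activation-induced factor Egr1 (1.80 ± 0.27), Klrk1 (1.13 ± 0.22), Kcnq5 (0.81 ± 0.13), Nrp1 (0.56 ± 0.09), Aff3 (0.49 ± 0.08), Tnfsf8, the CD30 ligand (0.67 ± 0.10), and the phosphatase gene Inpp4b (0.31 ± 0.04) rose. H2-Ab1 (0.80 ± 0.11) and Cd74 (0.79 ± 0.11), genes of antigen presentation by MHC class II, were higher as well, and with them H2-Aa of the dendritic cell list (0.63) and Cd79a of the B cell list (2.01). H2-Aa did not pass without control 1 (0.56), nor Cd79a without control 1 (1.96), control 2 (1.85) or knockout 1 (1.81). The summed dendritic cell list was 208 to 479 CPM in members and 79.9 to 336 CPM in Eomes/Gzmk cells, and its part in the class II values was not tested. Of its 6 genes only H2-Aa, itself of class II, had enough counts to be tested here.

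Of 20 tested Th1 genes, 3 were lower, Ccl5 and Fasl among them, and none was higher. Tbx21 (-0.16 ± 0.10), Cxcr6 (0.18 ± 0.08), Il12rb2 (0.18 ± 0.20) and Tnf (0.35 ± 0.17) had adjusted p-values of 0.469 to 0.873, and Ifng (-0.03 ± 0.26), Stat4 (0.01 ± 0.07) and Csf1 (0.00 ± 0.25) lay near 0. Klf2 (0.25 ± 0.09), S1pr1 (0.17 ± 0.10), Ccr7 (0.41 ± 0.20) and Il1rl1 (0.71 ± 0.25) did not pass either (adjusted p 0.238 to 0.607). On the equal-depth gate 3 genes passed, Ccl5 lower (-1.03) and Inpp4b (0.48) and Kcnq5 (1.58) higher. Without control 1 there were 63 calls at full depth, and without control 2 there were 82. With DESeq2 Cd74 (0.82), Kcnq5 (0.99), Klrk1 (1.14), Bach2 (0.46), H2-Aa (0.62) and Cd79a (2.14) did not pass. The remaining calls against Eomes/Gzmk cells were made at full depth and did not pass, or were not tested, on the equal-depth gate.

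Members also varied among themselves. They were split within each library by whether a cell thinned to 2000 UMIs had a Ccl5 UMI, and levels, as thinned UMIs per 1000000 without further scaling, are given without a test, since the split was made on the same cells. Tbx21 was at 148 ± 35.2 in members with a Ccl5 UMI and at 94.7 ± 11.7 in those without (SD, n = 5 libraries), and was higher with Ccl5 in 4 of 5 libraries. Cxcr6 was at 389 ± 144 with and 264 ± 145 without a Ccl5 UMI, Isg15 at 164 ± 34.7 with and 113 ± 21.04 without, and both were higher with Ccl5 in 5 of 5 libraries. Slamf6 was lower with Ccl5 in 5 of 5 libraries, at 174 ± 47.3 with and 296 ± 101 without. Slamf6 thus stood on one side of this split and Cxcr6 and Isg15 on the other.

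Between genotypes 1 of 9764 genes passed the threshold in members (0.0102%). On simulated counts this comparison found 22% of 1.5-fold changes, so few calls do not show that the members were alike. Il1rl1, the targeted gene, was at 80.3, 36.8 and 11.95 CPM in knockout members and at 5.89 and 6.37 CPM in control members. Each knockout library lay above both control libraries, the opposite of a loss (log2 fold change of knockout over control 2.83 ± 0.59, adjusted p = 0.438). Without knockout 3 the difference passed (3.23, adjusted p = 0.0121). Cells with a Foxp3 UMI, in which the Cre recombinase acts, had 151, 59.0 and 46.0 CPM in knockout and 80.1 and 50.9 CPM in control libraries. Which exons were flanked by loxP sites is not given in the sources used here, and a 3′ tag outside the deleted part would not report the deletion, so these values check neither the labels nor the deletion.

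The gene that passed was Lilr4b, a receptor of the leukocyte immunoglobulin-like family. It was at 81.6, 82.4 and 59.1 CPM in knockout members (74.3 ± 13.2, SD, n = 3) and at 24.1 and 24.0 CPM in control members (24.1 ± 0.0876, SD, n = 2), with no overlap (1.65 ± 0.20, adjusted p = 0.0276). Its neighbour and close paralogue Lilrb4a was at 61.5, 60.5 and 47.8 CPM in knockout and at 26.8 and 23.5 CPM in control members (1.18 ± 0.19, adjusted p = 0.229). On mm10, with GENCODE M21, Lilr4b lies at chr10:51480632-51486703 and Lilrb4a at chr10:51490956-51496611, both on the plus strand, and reads of such similar genes can be split between them. The call for Lilr4b was lost without control 1 (1.66, adjusted p = 0.0959), knockout 1 (1.60, adjusted p = 0.112) or knockout 2 (1.57, adjusted p = 0.136). No gene passed without knockout 1 or knockout 2, 2 passed without control 1, 3 without knockout 3 and 52 without control 2. The call for Lilr4b was also lost on the equal-depth gate (1.33, adjusted p = 0.6) and without the 584 members that had a UMI of an other-cell marker (1.75, adjusted p = 0.061). Lilr4b was likewise higher in knockout libraries among resident-marker cells (71.4, 67.0 and 60.3 CPM in knockout, 26.2 and 23.9 CPM in control) and other CD4 cells (29.4, 47.3 and 40.5 CPM in knockout, 7.83 and 8.38 CPM in control).

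Other genes with the smallest p did not pass. Ccr2 was at 166, 290 and 191 CPM in knockout and at 97.7 and 110 CPM in control members, with no overlap (1.09 ± 0.22, adjusted p = 0.438). Hivep3, a zinc finger factor, was at 78.3, 77.8 and 71.0 CPM in knockout and at 38.6 and 44.6 CPM in control members (0.90 ± 0.16, adjusted p = 0.352). Serpina3g, a protease inhibitor of activated T cells, had 0.84 ± 0.17, and the olfactory receptor gene Olfr60 had 4.16 ± 0.81 at 0.38 to 18.4 CPM. Lower in knockout members were Napsa, an aspartic protease (-1.72 ± 0.31, at 12.9, 7.15 and 7.03 CPM in knockout and 34.2 and 22.6 CPM in control), and Cd74 (-0.72 ± 0.16, at 718, 587 and 555 CPM in knockout and 1087 and 980 CPM in control). Ahsa1, Nsg2 and Tanc1 had -0.84, -1.08 and -0.96. The summed dendritic cell list was 208 to 329 CPM in knockout and 436 and 479 CPM in control members, its libraries ordered as for Cd74. That list holds H2-Aa, itself a class II gene like Cd74, so the shared order does not separate the cell type from class II expression. Flt3, Clec9a, Xcr1 and Siglech of the list had too few counts to be tested. The 2 that were tested, Cd209a and H2-Aa, were both lower in knockout members (median -1.55). Each had an unadjusted p under 0.05 in edgeR, and neither passed. None of 4 tested genes of the B cell list had a positive log2 fold change (median -0.68). The summed B cell list overlapped, at 9.70 to 91.3 CPM in knockout and 80.1 and 42.7 CPM in control members. The part of the dendritic cell and B cell lists in the Cd74 difference was not tested. Without control 2, Cxcr6 (1.48), Hivep3 (1.00), Hip1 (1.24), Napsa (-1.96), Nsg2 (-1.38) and Jun (-1.03) were among the genes that passed, and without knockout 3 Olfr60 passed (4.57). DESeq2 called 7 genes (0.0717%): Lilr4b, Lilrb4a, Ccr2, Olfr60, Lyz2 and Hip1 higher and Cd74 lower. Libraries did not overlap between genotypes for 18% of all genes tested, 7.45% above and 10.6% below control.

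The Th1 list showed no call by edgeR or DESeq2 among 21 tested genes. Of the 21, 11 had an unadjusted p under 0.05 in edgeR, as had 532 of all 9764 genes, and 19 had a positive log2 fold change, with a median of 0.67, where over all genes 48.7% were positive and the median was -0.01. The libraries of 11 of the 21 did not overlap between genotypes, where 18% of all tested genes did not. The lean was not particular to members. In other CD4 cells, by the levels given above, Tbx21, Cxcr6 and Il12rb2 were also higher in every knockout than in every control library. Those of Ifng and Ccl5 overlapped there. In the interaction test given below, 5 of 21 Th1 genes had a more positive difference in members (median -0.26), and none passed. Over all genes in that test 49.1% were positive and the median was -0.01. Of the 21, 11 had an unadjusted p under 0.05 there in edgeR, as had 850 of all 10747 genes. Il12rb2 was at 57.0, 128 and 36.6 CPM in knockout and at 12.9 and 38.7 CPM in control members (1.75 ± 0.51, adjusted p = 0.631), overlapping in knockout 3. Cxcr6 was at 296, 488 and 317 CPM in knockout and at 135 and 238 CPM in control members (1.02 ± 0.26, adjusted p = 0.519). Tbx21 was at 129, 133 and 110 CPM in knockout and at 93.7 and 96.6 CPM in control members, without overlap (0.41 ± 0.15, adjusted p = 0.726). Tnf had 0.67 ± 0.19 (adjusted p = 0.587). Ifng was at 24.6, 138 and 50.6 CPM in knockout and at 28.1 and 54.9 CPM in control members (0.95 ± 0.52, adjusted p = 0.999) and its difference was -0.06 without knockout 2. Ccl5 (-0.02 ± 0.25), Stat4 (0.14 ± 0.17) and Gzmb (0.88 ± 0.77) had adjusted p-values of 0.999. Gzmb had 4.03 without control 2 (adjusted p = 0.0054) and -0.35 without control 1.

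Csf1, Klrg1 and Ccl1 were each high in 1 knockout library. Csf1 was at 7.12, 59.5 and 7.03 CPM in knockout and at 3.99 and 2.94 CPM in control members (2.96 ± 0.83, adjusted p = 0.587). Klrg1, a receptor of terminally differentiated effector cells, had 3.99 ± 0.89, with 40.1 CPM in knockout 2 and 1.14 to 6.33 CPM elsewhere. Ccl1, a chemokine of activated T cells, was at 1.94, 13.5 and 185 CPM in knockout and at 0.38 and 2.45 CPM in control members (5.92 ± 1.69). Il2ra, a subunit of the interleukin 2 receptor, was at 24.6, 30.9 and 16.9 CPM in knockout and at 7.04 and 14.2 CPM in control members (1.36 ± 0.35). None of these passed.

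Circulation and memory genes leaned the other way, again with no call by edgeR or DESeq2 and with an unadjusted p under 0.05 for 5 of the naive and memory genes and 6 of the egress genes. Of 15 naive and memory genes 2 had a positive log2 fold change (median -0.25), and of 11 egress genes 3 (median -0.31). Klf2 was at 144, 138 and 183 CPM in knockout and at 221 and 222 CPM in control members, with no overlap (-0.50 ± 0.16, adjusted p = 0.651). Tcf7 (-0.61 ± 0.17), Ccr7 (-0.82 ± 0.34) and S1pr1 (-0.31 ± 0.16) had adjusted p-values of 0.587 to 0.999. Of 15 immediate early and heat shock genes 4 were positive (median -0.54), with Jun at -0.78 ± 0.21 and Hsph1, a heat shock protein gene, at -1.12 ± 0.29, the last past the threshold without control 1 (-1.62). Of 10 type I interferon genes 1 was positive (median -0.27). The macrophage list summed to 586, 597 and 703 CPM in knockout and 375 and 712 CPM in control members, and its part in these lists was not tested.

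**Figure D4:**
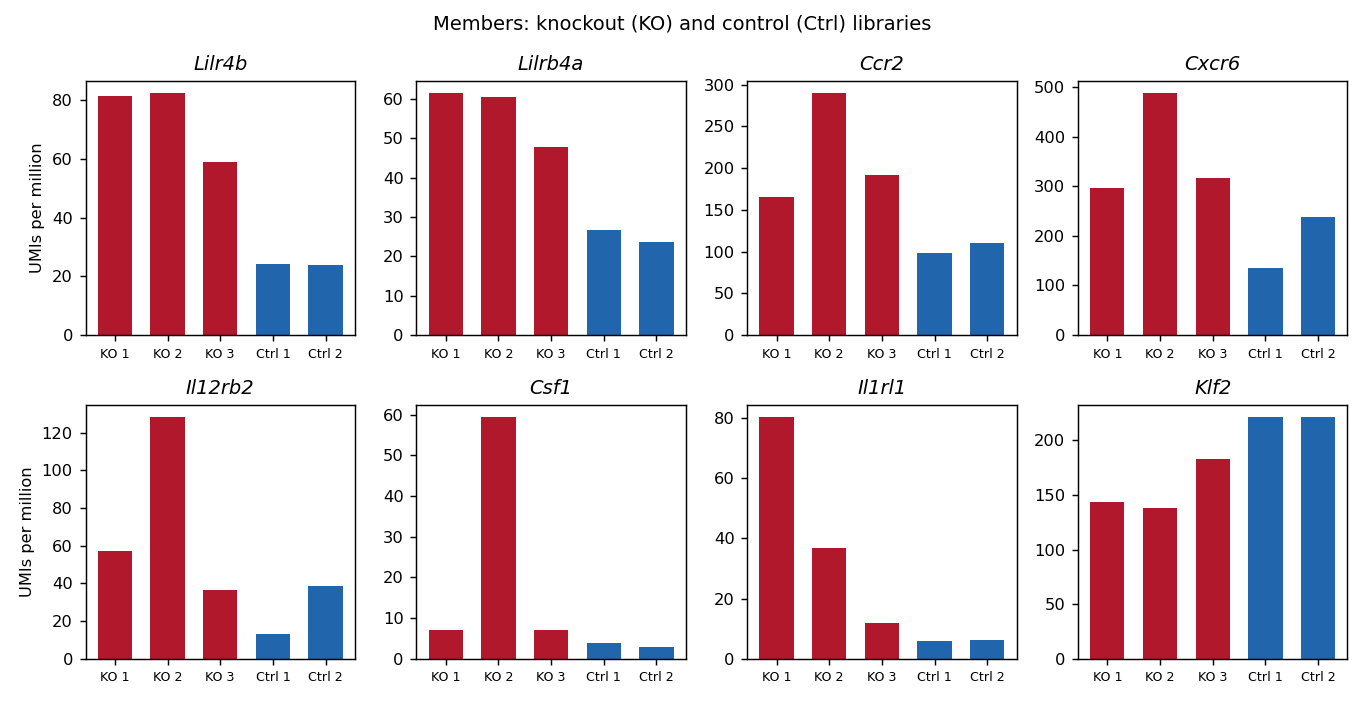
CPM (vertical axes from 0) of 8 genes in the summed members of each knockout (KO) and control (Ctrl) library, 1 bar per library and no error bar. Lilr4b stands at 59.1 CPM or more in knockout and at 24.1 CPM or less in control libraries, and Csf1 is high in knockout 2 (59.5 CPM).

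Whether the knockout-control difference was of a different size in members and in other CD4 cells was tested as an interaction. Of 10747 genes, 17 (0.158%) passed, 8 with a more positive difference in members (0.0744%) and 9 with a more negative one (0.0837%), and DESeq2 called 5 (0.0465%). Itgb1, the integrin beta 1 chain, was at 1234, 1289 and 1467 CPM in knockout and at 1844 and 1381 CPM in control members, and at 585, 808 and 729 CPM in knockout and 577 and 412 CPM in control other CD4 cells. Its knockout-control difference was thus more negative in members (-0.80 ± 0.11, adjusted p = 0.00975), though not past the threshold without control 2 (-0.77, adjusted p = 0.0516). Nrp1, a semaphorin receptor, differed in the same direction (-0.82 ± 0.13, adjusted p = 0.0154). It did not pass without control 1 (-0.86), control 2 (-0.77) or knockout 3 (-0.82, adjusted p 0.0638 to 0.113 over the 3). The interaction did not pass for Lilr4b (-0.67 ± 0.26, adjusted p = 0.472), Tbx21 (-0.77 ± 0.25, adjusted p = 0.376), Cxcr6 (-0.68 ± 0.19, adjusted p = 0.247), Ifng (1.05 ± 0.33, adjusted p = 0.353), Il1rl1 (1.24 ± 0.53, adjusted p = 0.554) or Ccl5 (-0.56 ± 0.29, adjusted p = 0.685). Without knockout 1, however, Tbx21 (-0.97), Cxcr6 (-0.85) and Ccl5 (-0.93) passed, as did Ifng without control 1 (1.66) and Il1rl1 without knockout 3 (1.73). Counts of calls moved with single libraries, from 6 without knockout 3, 10 without control 1 and 11 without control 2 to 125 without knockout 1. Of the 17 genes, Jchain passed on the equal-depth gate, with the other sign.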

How the data were processed

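The data were UMI counts per gene and cell barcode of 5 libraries, 3 knockout and 2 control. Per the file headers, the authors' deposited UMI counts come from Cell Ranger 8.0.0, and the submitters' processing notes name Cell Ranger 8.0, Seurat 5.1.0 and mm10. The deposited matrices hold 31053 genes, of which 30934 had a position in GENCODE M21. Members were gated as stated above, with no clustering. No doublet caller was run, and leaving out the 5% of cells with most UMIs in each library was an alternative.

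UMIs were summed per library and population and tested with edgeR 4.0.16 in R 4.3.3 (TMM, filterByExpr, quasi-likelihood, Benjamini-Hochberg over all genes tested, threshold 0.05). Populations of the same libraries were compared with the library as a term. SE is the log2 fold change divided by the root of F. Shares were compared by exact permutation over libraries, with 95% Clopper-Pearson intervals and a floor of 3 counts, which cover counting error only. Cells were thinned once with a fixed seed. Alternatives were DESeq2 1.42.0, RLE factors, no count filter, a replicate block, leaving out each library, other cell filters and gates. Cells were read with scipy 1.17.1 and numpy 2.4.6 under Python 3.11.15, tables made with pandas 2.3.3 and figures with matplotlib 3.10.9.

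Genes named were, per comparison and direction, up to 10 with the smallest p that passed with 1 sign or without overlap, filled to 6, plus up to 4 per gene list and a fixed set of Th1, egress and target genes. Antigen receptor segments, unnamed gene models, sex-linked, ribosomal, mitochondrial and other-cell genes were left out of the first group, and not every gene so named is printed. The members and all lists were chosen with earlier results of these data known.

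On simulated counts with 50 genes changed per size, the share that edgeR found between genotypes was 22% at 1.5-fold, 82% at 2-fold, 90% at 3-fold and 92% at 4-fold (9603 genes, 14 false of 157 calls). At the same sizes it was 78%, 92%, 98% and 94% against resident-marker cells (9897 genes, 19 false of 200 calls), and 60%, 84%, 98% and 92% against Eomes/Gzmk cells (8753 genes, 6 false of 173 calls), and 42%, 62%, 74% and 88% for the interaction (10596 genes, 14 false of 147 calls). Changed genes of all sizes were simulated together, and many calls loosen the Benjamini-Hochberg adjustment. The real comparison of genotypes had 1 call. The simulated shares may therefore overstate what that comparison could find.

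A few genes are not reported here.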

Additional observations from a re-analysis of the deposited data

Results flagged for a closer look

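The 17 genes that passed the interaction test are flagged because their knockout-control difference differed between members and other CD4 cells (edgeR's quasi-likelihood test, adjusted p under 0.05). Values are that difference in members minus that in other CD4 cells, on the log2 scale. More positive in members were Lyz2 (1.42), Selenop (0.93), Negr1 (3.36), Plac8 (1.54), Pirb (1.88), Pid1 (1.39), Ust (0.75) and Apoe (1.42). More negative in members were Itgb1 (-0.80), Nrp1 (-0.82), Cntln (-1.17), Casp4 (-0.97), Itga4 (-0.50), Gprin3 (-0.63), Jchain (-9.04), B630019A10Rik (-1.24) and Gm14005 (-1.06). The last 3 fall outside the rule for named genes and were named after their values were seen.

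Lyz2, the lysozyme of macrophages, was at 175, 226 and 181 CPM in knockout and at 103 and 125 CPM in control members, and at 75.1, 132 and 75.8 CPM in knockout and 149 and 145 CPM in control other CD4 cells. Its difference had opposite signs in the populations, and it was at -0.03 on the equal-depth gate. Apoe, another macrophage gene, was at 352, 210 and 324 CPM in knockout and at 53.6 and 223 CPM in control members. Selenop, a selenium carrier, was at 113, 72.2 and 115 CPM in knockout and at 68.3 and 97.6 CPM in control members, and at 151, 114 and 165 CPM in knockout and 212 and 236 CPM in control other CD4 cells. Jchain, the joining chain of plasma cells, was at 261 CPM in the members of control 1 and at 0.255 CPM or less in the members of the other libraries. It was not tested without control 1, and its fitted value rests on libraries at 0 and is no bound. Itga4, the integrin alpha 4 chain and partner of Itgb1, was at 1285, 1049 and 1402 CPM in knockout and at 1747 and 1292 CPM in control members, and at 1429, 1250 and 1400 CPM in knockout and 1356 and 1009 CPM in control other CD4 cells.

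With 1 library left out, Lyz2 passed each time. Without control 1 the calls lost were those of B630019A10Rik (-0.98), Casp4 (-0.76), Cntln (-1.24), Gm14005 (-0.85), Gprin3 (-0.58), Itga4 (-0.47), Negr1 (3.01), Nrp1 (-0.86), Pirb (1.69), Plac8 (1.37), Selenop (0.75) and Ust (0.89). Without control 2 they were those of Apoe (1.02), Cntln (-1.11), Gprin3 (-0.65), Itga4 (-0.51), Itgb1 (-0.77), Negr1 (3.66), Nrp1 (-0.77), Pid1 (1.16), Pirb (2.04) and Ust (0.69). Without knockout 1 it was that of Jchain (-3.57), and without knockout 2 those of Cntln (-1.09), Gprin3 (-0.62), Negr1 (3.16) and Pid1 (1.20). Without knockout 3 they were those of Apoe (1.42), Casp4 (-0.85), Cntln (-1.12), Gm14005 (-0.96), Gprin3 (-0.66), Itga4 (-0.55), Negr1 (3.56), Nrp1 (-0.82), Pirb (1.69), Plac8 (1.56), Selenop (0.94) and Ust (0.73).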

How the results depend on the processing

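The comparison of genotypes had 1 call, and 7 with DESeq2, 207 with no filter on low counts, 2 with 2 or more Nkg7 UMIs and 0 to 52 with 1 library left out. It had 0 without members that carried an other-cell UMI (edgeR, 468 genes with an unadjusted p under 0.05) and 0 on the equal-depth gate (340 genes). With the replicate block there were 133 calls. The groups share 2 replicate numbers, whose libraries deviated together with r = 0.187 and 0.0491 over genes, and nothing in the labels pairs them. With 2 controls each knockout library has the same r of opposite sign with the other control, so these signs cannot show a pairing. Knockout 3, which has no partner number, had r = 0.145 with control 2. Against resident-marker cells the 555 calls became 306 with DESeq2, 854 with no filter, 64 on the equal-depth gate and 269 to 564 with 1 library left out. Against Eomes/Gzmk cells the 126 calls became 53, 227, 3 and 63 to 111 under the same settings. Against other CD4 cells the 4975 calls became 2632 on the equal-depth gate and 4227 to 4662 with 1 library left out. The 17 interaction calls became 5 with DESeq2, 162 with no filter, 7 on the equal-depth gate, 10 without the 5% of cells with most UMIs and 6 to 125 with 1 library left out. The share difference of 1.40 percentage points was -0.209 after thinning to 1000 UMIs and 0.489 to 2.31 with 1 library left out. The cause of these shifts was not tested, and fewer cells and UMIs enter the equal-depth fits.

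Signs turned, on the log2 scale, for the following genes. On the equal-depth gate between genotypes Nsg2 was at 0.32, S1pr1 at 0.0904, Ccl1 at -1.22 and Lyz2 at -0.0933. Ccl5 was at 0.0326 with 2 or more Nkg7 UMIs. With 1 library left out Ccl5 ran over -0.41 to 0.49, Stat4 over -0.0029 to 0.32, Gzmb over -0.35 to 4.03 and Ifng over -0.0646 to 1.47. Against resident-marker cells on that gate Ifng was at -0.0959, Tnf at -0.21, Stat4 at -0.0373 and Lyz2 at 0.0258, and Lyz2 was at 0.13 without the cells with most UMIs. With 1 library left out Gzmb ran over -0.25 to 0.54, Csf1 over -0.15 to 0.11, Ifng over -0.16 to 0.50 and Tnf over -0.072 to 0.23. Against Eomes/Gzmk cells on that gate H2-Ab1 was at -0.0115, H2-Aa at -0.16, Tbx21 at 0.0932, S1pr1 at -0.0855, Slamf7 at 0.0955 and Tox at 0.0824. Stat4 was at -0.000116 with DESeq2 and -0.000725 with RLE factors, Csf1 at -0.000366 with RLE factors and Ifng at 0.00782 with no filter. With 1 library left out Ifng ran over -0.68 to 0.48, Csf1 over -0.0416 to -0.0342 and Stat4 over -0.0793 to 0.0928. Against other CD4 cells on that gate Stat4 was at -0.19 and C1qb at -0.0296. For the interaction on that gate Gprin3 was at 0.26, Ifng at -0.34, Lyz2 at -0.0284 and Jchain at 8.14. A lone control library, where the other was left out, was assumed to vary like the rest.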
